A study of Mus musculus with 4 samples.

Results

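The antioxidant and detoxification genes described here are the enzymes and small proteins that remove superoxide and peroxides, repair oxidised thiols, attach glutathione to reactive compounds, break down haem and quinones, and bind metal ions. Members were the features of the array value table with 1 gene symbol whose name begins as that of a glutathione S-transferase (Gsta, Gstm, Gstp, Gstt, Gsto, Gstz), glutathione peroxidase, peroxiredoxin, thioredoxin, superoxide dismutase, sulfiredoxin, haem oxygenase, quinone reductase or glutaredoxin gene, or is Cat, Gclc, Gclm, Gss, Gsr or a metallothionein. This name rule found 72 features of 58 genes, of which 67 features of 56 genes had a value on at least 1 array. The whole table had 12221 such features with 1 symbol. Values on all 4 arrays were present for 51 member features of 45 genes (76.1% of the members, beside 62.9% of all features), and these entered the tests, which covered 7684 features. The other 16 member features are described by their values alone.

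Superoxide made by the respiratory chain and by oxidases is turned into hydrogen peroxide by superoxide dismutases, and the peroxide is then removed by catalase, glutathione peroxidases and peroxiredoxins. For glutathione peroxidases and peroxiredoxins, glutathione and thioredoxin supply the electrons. Both are kept reduced, at the cost of NADPH, by glutathione reductase and thioredoxin reductases. The transcription factor Nrf2 raises many of these genes through antioxidant response elements when its inhibitor Keap1 is oxidised. In the brain, astrocytes are known to hold much of the glutathione system and supply neurons with its precursors.

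The study compared RNA of the dentate gyrus, the hippocampal region of granule neurons, from young male C57BL/6J mice. Per the labels, mice given MK-801 (300 µg per g body weight), which blocks the open channel of NMDA receptors, supplied the Cy5 channel, and mice given saline (5 µL per g) supplied the Cy3 channel, on 1 array at each of 1, 2, 4 and 6 h. The dose is printed as labelled and is far above usual doses, so the unit may be wrong. The labels name control mice for both channels and count time from a last shock of the MK-801 mice, which does not settle whether the animals on these arrays were shocked, and they do not say how many were pooled.

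Values are log ratios of the channels, read as log2 and centred on each array's median. Neither the log base nor the direction of the ratio (which channel is on top) is stated, so only the sign of the deposited value is given. The labels of the 4 arrays share 1 wording, and 1 direction was assumed for all of them. An exact 0 was read as no value. The 1 h array stood apart, with correlations across the 7684 features of -0.07 to -0.06 with the others, which correlated at 0.64 to 0.80 with each other. Since 1 array covers each time, p-values rest on the spread between times. In bulk tissue, fewer cells of a type and less RNA per cell cannot be told apart. Tissue identity could not be checked from ratios. Values on all 4 arrays were present for 7 of 15 granule cell markers, Prox1 and Calb1 among them. The same held for 11 of 12 astrocyte and 9 of 12 neuron markers, so this count does not identify the tissue.

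The antioxidant response element is the promoter motif that Nrf2 binds, and its core was searched as TGACNNNGC on both strands from 250 bases before to 50 bases after each RefSeq start (GRCm38.p6). Promoters were matched for 47 of the 56 genes. The core occurred in 9 of their 66 promoters (13.6%), beside 12.4% of all 32851. Metal response element cores, searched on both strands as TGCACNC and TGCGCNC, occurred in 13.6% and 19.7% of member promoters, beside 12.6% and 15.4% of all. The stretches around the antioxidant core are shown for the 6 genes that hold it and had values on all 4 arrays, because they let the letters be set beside the ratios given later. Each runs 5′ to 3′ on the strand that carries the match, with the core in capitals.
Sod1, chr16:90220696-90220724, minus strand: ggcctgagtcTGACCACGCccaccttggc
Srxn1, chr2:152105542-152105570, minus strand: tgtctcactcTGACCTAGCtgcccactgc
Prdx1, chr4:116685456-116685484, minus strand: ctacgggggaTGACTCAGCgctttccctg
Mt2, chr8:94172529-94172557, plus strand: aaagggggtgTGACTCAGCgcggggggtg
Txnrd1, chr10:82859104-82859132, minus strand: cgtgtcagaaTGACAAAGCaaaaatccag
Gstm7, chr3:107931725-107931753, minus strand: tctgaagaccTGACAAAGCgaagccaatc
The core lay upstream of the start except in Srxn1, where it lay just inside the transcribed sequence. The Prdx1 and Mt2 cores also contain TGACTCA, the letters bound by AP-1 factors, and none of the 6 overlapped a metal response core. These matches are descriptions of letters and not binding sites. Their genes did not share 1 course: Srxn1 had its high ratio at 1 h alone, Sod1 stayed near 0.27 throughout, and Prdx1 changed sign.

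Averaged over the 4 times, member ratios lay mostly on the positive side and were small. The mean was positive for 36 of 51 features (70.6%, beside 48.0% of all features), and the median of the means was 0.07, beside -0.01 for all features. In limma's test of the mean against 0, 0 members passed after Benjamini-Hochberg adjustment, as did 0 of all 7684 features (0% called). Before adjustment 12 members had a positive mean at p under 0.05 (23.5%, beside 7.05% of all features) and 1 a negative mean (1.96%, beside 7.76%). The 12 means ran from 0.18 to 0.30, with adjusted p between 0.224 and 0.324. They belonged to Sod1, Sod2, Txn1, Txnrd1, Txnip, Txndc12, Txndc17, Gstm1, Gstm7, Gstp1, Gsta4 and Hmox2, and the negative one was Gstt1. Ratios above 0 on all 4 arrays were found for 12 members (23.5%, beside 11.6% of all features), and ratios below 0 on all 4 for 3 (5.88%, beside 13.9%). Cy5 carried the MK-801 RNA on every array, so a constant dye bias of a feature cannot be told apart from such ratios of 1 sign. On single arrays the member medians were 0.07, 0.12, 0.02 and 0.13 at 1, 2, 4 and 6 h, beside -0.03, -0.01, 0.00 and 0.00 for all features.

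**Figure D1:**
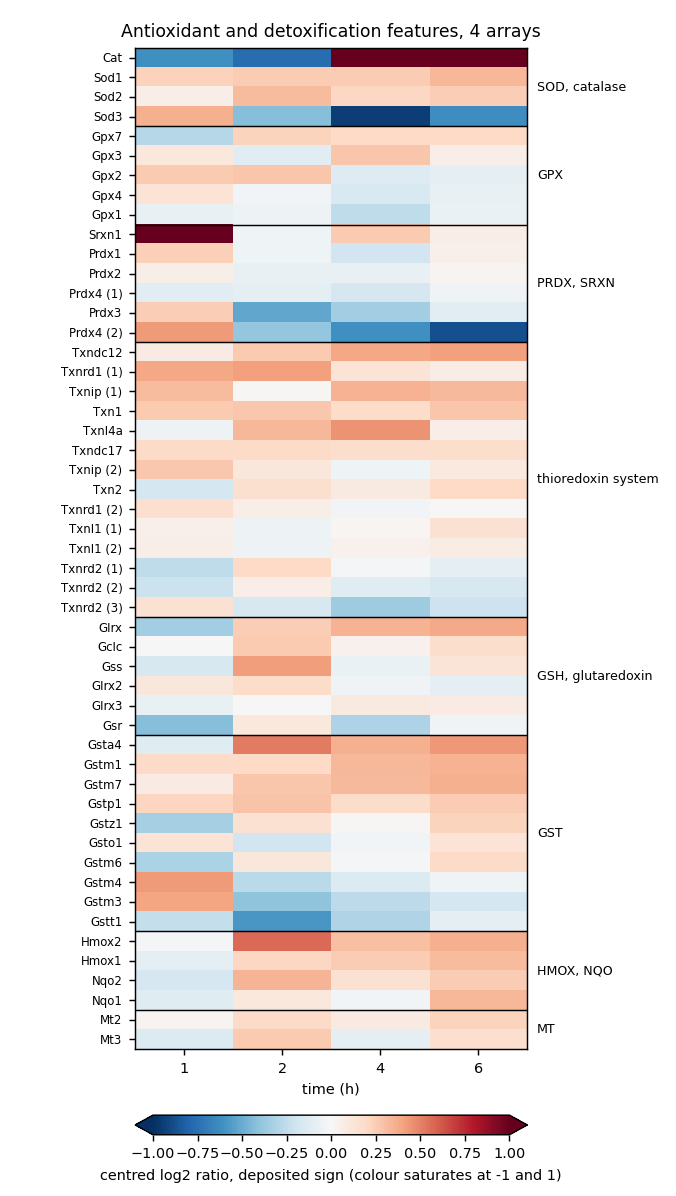
Centred log2 ratio (deposited sign) of the 51 member features with values on all 4 arrays; rows are features grouped by role, numbers in brackets tell features of 1 gene apart, columns are the arrays at 1, 2, 4 and 6 h, and colour saturates at -1 and 1. Most cells are pale, 43 of the 51 features stay within 0.5 of 0 on every array, and Cat, Srxn1, Sod3 and 1 Prdx4 feature carry the strong colours.

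Without the 1 h array the same test called 13 of the 51 members, 11 positive (21.6%, beside 6.61% of all features) and 2 negative (3.92%, beside 5.4%). Over 2, 4 and 6 h the positive members were Sod1, Sod2, Txn1, Txndc12, Glrx, Gsta4, Gstm1, Gstm7, Gstp1, Hmox1 and Hmox2, with adjusted p (limma) between 0.0227 for Gsta4 and 0.0496 for Gstp1. The negative ones were Sod3 and 1 of 2 Prdx4 features. With arrays weighted by how well they fitted the mean, 20 members passed (39.2%, beside 27.2% of all features), all 13 of these among them. Leaving out the 2, 4 or 6 h array in place of the 1 h array left 0 members called. The array left out for these calls is the one that stood apart, and the arrays kept correlated at 0.64 to 0.80. A constant dye bias does not cancel in this mean either. The weights were estimated from the same arrays, so the weighted fit is not separate support. The later means given below for single genes carry the same limits.

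Superoxide dismutases and catalase are the first 2 steps of peroxide handling, and all 4 genes were measured on every array. Sod1, the copper-zinc enzyme of the cytosol, had ratios of 0.23, 0.25, 0.26 and 0.33 at 1, 2, 4 and 6 h. Its mean was 0.27 ± 0.05 (SD over the 4 arrays), which is 1.2 times on a linear scale, with an adjusted p of 0.224 in limma. Sod1 was thus positive and close to level on every array. A constant dye bias of its feature cannot be told apart from such a course. Sod2, the manganese enzyme of mitochondria, had 0.07, 0.31, 0.20 and 0.25 (mean 0.21 ± 0.10, adjusted p 0.286, limma). Both enzymes were positive on every array, Sod2 least so at 1 h.

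Sod3, the secreted extracellular superoxide dismutase, behaved unlike its relatives. Its ratios were 0.36, -0.43, -0.94 and -0.62 at 1, 2, 4 and 6 h, and the 1 h array alone was positive. Over 2, 4 and 6 h its mean was -0.66 ± 0.26 (adjusted p 0.0271, limma), while over all 4 arrays it was -0.41 ± 0.55 (0.380). Its slope of -0.42 ± 0.12 per doubling of time (SE) had an unadjusted p of 0.0124 and an adjusted p of 0.270. Of the choroid plexus and blood marker features, 1 of 5 and 1 of 6 had this order of signs. One feature of Kl, a choroid plexus marker, had 0.20, -2.64, -3.03 and -3.18, while the other Kl feature had -0.24, -0.20, -0.11 and -0.09. Ttr, the main choroid plexus transcript, had -0.20, -0.90, -0.60 and -0.70, and 4 of the 5 choroid plexus features were negative on each array. Among blood markers Car1 had 0.59, -2.81, -4.09 and -2.74, whereas the haemoglobin gene Hba-a1 had 0.24, 0.49, 0.09 and 0.21, and 5 of the 6 blood features were positive at 2 h. The markers of each tissue thus did not share 1 course, and their part in the Sod3 ratios was not tested.

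Cat encodes catalase, the peroxisomal enzyme that splits hydrogen peroxide into water and oxygen, and it had the widest course of any member. Its ratios were -0.61, -0.76, 1.59 and 1.25 at 1, 2, 4 and 6 h, so the 2 early arrays were negative and the 2 late ones positive. On a linear scale the size was 1.53, 1.69, 3.02 and 2.38 times. The 4 h value ranked 1 from the top among 8903 features with a value on that array, the 6 h value ranked 5 among 9189, and the 2 h value ranked 167 from the bottom among 10633. Late minus early ratios differed by 2.11 ± 0.17 (SE), with an unadjusted p of 5.34e-05 and an adjusted p of 0.205 in limma. This rests on 1 feature. Of the features with the nearest feature numbers, 6 to 8 were measured per array, and none reached the Cat ratios: their highest values at 4 and 6 h were 0.12 and 0.11. Whether feature numbers follow position on the array is not known, and a fault of the Cat spot itself was not tested.

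**Figure D2:**
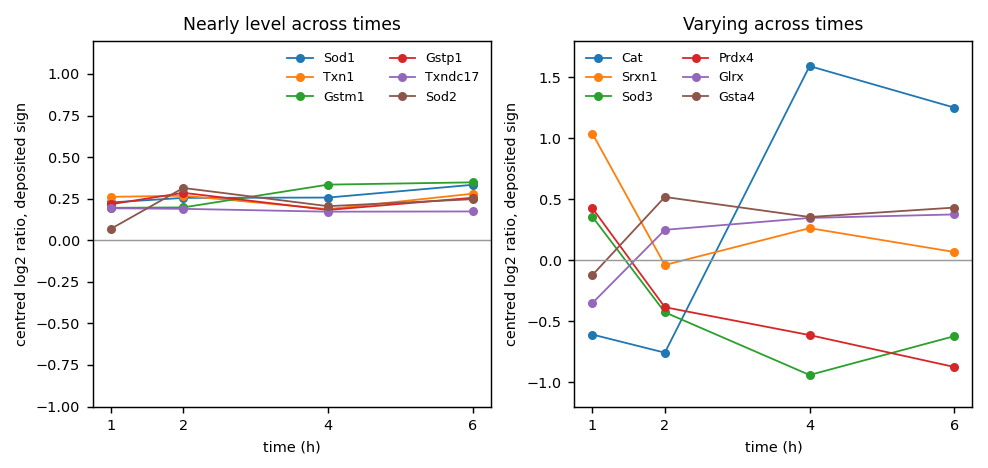
Centred log2 ratio (deposited sign) against time in hours for 12 member features, 1 line per gene and 1 array per point, with no replicate error at any time. On the left Sod1, Txn1, Gstm1, Gstp1, Txndc17 and Sod2 stay between 0.07 and 0.35; on the right Cat passes from -0.76 at 2 h to 1.59 at 4 h, while Sod3 and the Prdx4 feature whose mean lies farther from 0 are positive at 1 h alone.

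Glutathione peroxidases reduce peroxides with glutathione, most of them through a selenocysteine in the active site. Their 5 features with values on all 4 arrays were small, from -0.28 to 0.28 over all arrays, and none had an unadjusted p under 0.05 for the mean. Gpx1, the cytosolic enzyme, had -0.07, -0.05, -0.25 and -0.07 at 1, 2, 4 and 6 h, negative throughout. Gpx4, which reduces lipid peroxides in membranes, had 0.14, -0.03, -0.15 and -0.08. Gpx3, the secreted plasma enzyme, had 0.10, -0.11, 0.28 and 0.06. Gpx1 alone of these 3 kept 1 sign. Gpx7, of the endoplasmic reticulum, had -0.28 at 1 h and 0.22, 0.20 and 0.20 later, and its later mean of 0.21 ± 0.01 did not pass (adjusted p 0.0587, limma). Gpx2, best known from the gut, had 0.26, 0.28, -0.13 and -0.09. Gpx5 had no value at 4 h, and the pseudogene feature Gpx2-ps1 had -0.75 at 1 h and -0.23 at 2 h and none later.

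Peroxiredoxins reduce peroxides through a reactive cysteine, and sulfiredoxin restores that cysteine when it has been over-oxidised. Srxn1, the sulfiredoxin gene and a known Nrf2 target, had 1.04, -0.04, 0.26 and 0.07 at 1, 2, 4 and 6 h. The 1 h value is 2.05 times on a linear scale and ranked 153 from the top among 10606 features. At the later times Srxn1 lay close to 0, with a mean of 0.10 ± 0.15 (adjusted p 0.392, limma). Its high ratio thus rests on 1 array and on 1 feature.

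Among the peroxiredoxins themselves none of the 5 features was positive at 2 h. Prdx1 had 0.24, -0.04, -0.19 and 0.05 at 1, 2, 4 and 6 h, and Prdx2, abundant in neurons, had 0.06, -0.07, -0.07 and 0.03. Prdx3, the mitochondrial form, had 0.25, -0.52, -0.34 and -0.12, with a later mean of -0.33 ± 0.20 that did not pass (adjusted p 0.0639, limma). Prdx4, of the endoplasmic reticulum, was read by 2 features that differed. The first had 0.43, -0.39, -0.61 and -0.88, with the smallest unadjusted p for a slope of any member (slope -0.48 ± 0.08 per doubling of time, SE, p 0.00122, adjusted p 0.270, limma). The second had -0.10, -0.09, -0.17 and -0.04, close to 0 on every array. The course of the first Prdx4 feature was therefore not seen in the second.

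Thioredoxin reduces disulfides in target proteins and hands electrons to peroxiredoxins. Txn1, the cytosolic thioredoxin gene, had 0.26, 0.27, 0.19 and 0.28 at 1, 2, 4 and 6 h (mean 0.25 ± 0.04, adjusted p 0.241, limma). Txndc17, a small thioredoxin-like disulfide reductase, had 0.19, 0.19, 0.17 and 0.17, and its SD over the arrays, 0.01, was the smallest of any member. Neither gene changed sign, and both were as positive at 1 h as later. Txndc12, a thioredoxin-like protein of the endoplasmic reticulum, had 0.08, 0.26, 0.38 and 0.41, in the order of the times, with a mean of 0.28 ± 0.15 (adjusted p 0.258, limma). Txn2, the mitochondrial thioredoxin gene, had -0.18, 0.16, 0.09 and 0.20, and a second feature had a value at 1 h alone, -0.13. Both Txn2 features were thus negative at 1 h.

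Thioredoxin reductases regenerate thioredoxin, and Txnip binds and inhibits it. Txnrd1, the cytosolic reductase gene, had 3 features. One had 0.39, 0.41, 0.14 and 0.07 (mean 0.25 ± 0.17, adjusted p 0.284, limma), another 0.16, 0.06, -0.03 and 0.00, and the last -0.01 at 1 h and -0.60 at 2 h with no later value. At 2 h the Txnrd1 features therefore lay on both sides of 0, and no course can be given for the gene. Txnrd2, the mitochondrial reductase gene, also had 3 features: at 1 h they gave -0.26, -0.22 and 0.15, and at 4 h -0.01, -0.12 and -0.36. Of the 2 Txnip features, one had 0.31, 0.01, 0.35 and 0.33 (mean 0.25 ± 0.16, adjusted p 0.284, limma) and the other 0.27, 0.11, -0.04 and 0.10. They were alike at 1 h and apart at 4 h. Txnl1, a thioredoxin-like cofactor of the proteasome, was read alike by its 2 features, within 0.15 of 0 on every array. Txnl4a, a spliceosome protein that the name rule takes in, had -0.05, 0.33, 0.45 and 0.07.

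**Figure D3:**
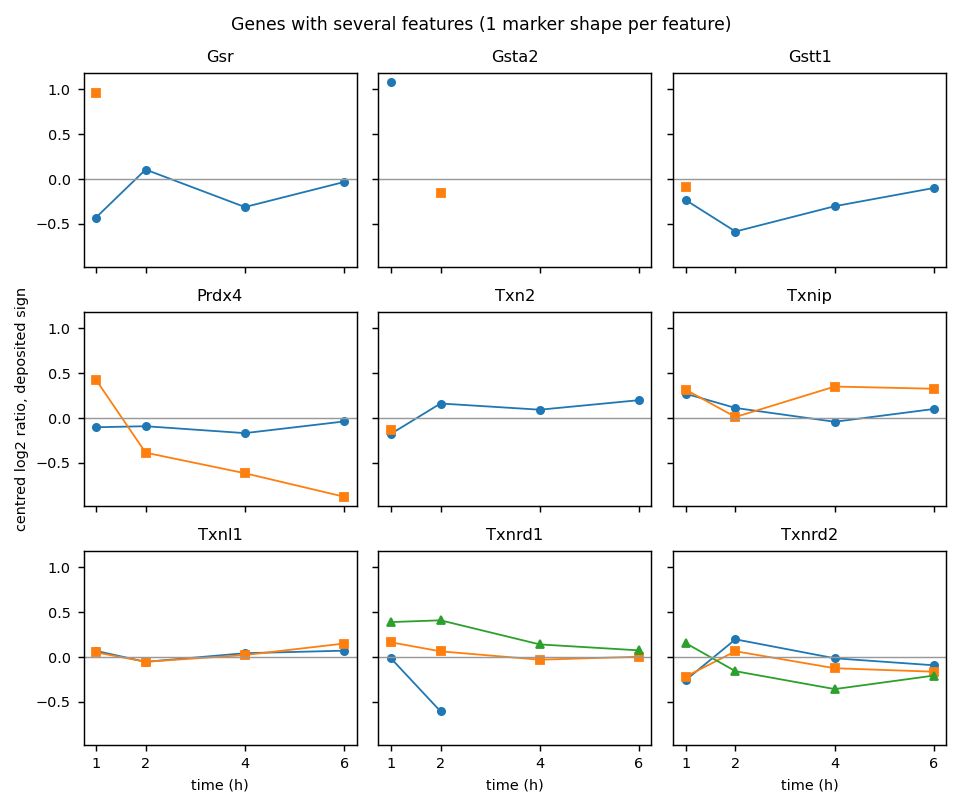
Centred log2 ratio (deposited sign) against time in hours for the 9 member genes with several features, 1 panel per gene and 1 marker shape per feature; a missing point means no value on that array. Txnl1 and Txn2 features lie together, whereas those of Gsr at 1 h, Txnrd1 at 2 h and Prdx4 at the later times lie apart.

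Over the 938 genes in the whole fit with several features, the pooled SD between features of 1 gene on 1 array was 0.28, 0.28, 0.32 and 0.29 at 1, 2, 4 and 6 h. For the 5 member genes with several features in the fit it was 0.21, 0.17, 0.20 and 0.25. These pooled SDs are of a size similar to the ratios of Sod1, Txn1, Gstp1 and Gstm1, each of which was read by 1 feature. The median range between features of 1 gene was smaller over the 938 genes, at 0.24, 0.18, 0.16 and 0.14. For the 5 member genes the median range was 0.22, 0.29, 0.34 and 0.11.

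Glutathione is made from glutamate, cysteine and glycine by glutamate-cysteine ligase (catalytic subunit Gclc, modifier Gclm) and glutathione synthetase (Gss), and is kept reduced by glutathione reductase (Gsr). Gclc, the rate-limiting subunit, had 0.01, 0.26, 0.04 and 0.18 at 1, 2, 4 and 6 h, and Gss had -0.16, 0.42, -0.07 and 0.13. Both had their highest value at 2 h. Gclm had -0.48 at 1 h and 0.53 at 2 h and no value later, so its 2 measured arrays lay on opposite sides of 0. One Gsr feature had -0.43, 0.11, -0.31 and -0.03, while another had 0.96 at 1 h and no other value. At 1 h the Gsr features thus pointed in opposite directions.

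Glutaredoxins use glutathione to remove it from protein thiols. Glrx, the cytosolic glutaredoxin gene, had -0.35, 0.25, 0.35 and 0.38 at 1, 2, 4 and 6 h. Its mean over the later times was 0.32 ± 0.07 (adjusted p 0.0323, limma), and its slope of 0.27 ± 0.08 per doubling of time (SE) had an unadjusted p of 0.0175 and an adjusted p of 0.284. The 1 h array was the single negative one for Glrx. Glrx2, mostly mitochondrial, and Glrx3, an iron-sulfur protein of the cytosol, stayed within 0.19 of 0 on every array.

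Glutathione S-transferases join glutathione to electrophiles, and they were the largest class by genes, with 19 member features of 17 genes, of which 10 had values on all 4 arrays. Genes of 1 class, the mu class above all, are similar in sequence, and cross-hybridisation between them was not tested. Gstm1, the main mu-class enzyme of astrocytes, had 0.20, 0.20, 0.33 and 0.35 at 1, 2, 4 and 6 h (mean 0.27 ± 0.08, adjusted p 0.241, limma). Gstp1, the pi-class enzyme, had 0.22, 0.29, 0.18 and 0.26 (mean 0.24 ± 0.05, adjusted p 0.255), and Gstm7 had 0.08, 0.27, 0.32 and 0.35 (mean 0.26 ± 0.12, adjusted p 0.258). These 3 were positive on every array. Gsta4, which clears the lipid peroxidation product 4-hydroxynonenal, had -0.12 at 1 h and 0.52, 0.35 and 0.43 later. Its later mean of 0.43 ± 0.08 had the lowest adjusted p of any member in the fit without 1 h (0.0227, limma). Gstt1, a theta-class enzyme, had negative ratios on every array: -0.23, -0.58, -0.30 and -0.10 (mean -0.31 ± 0.20, adjusted p 0.266). It did not pass without 1 h either (adjusted p 0.0800, limma). A second Gstt1 feature had a value at 1 h alone, -0.08.

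The other transferases showed no shared direction. Gstm3 had 0.39, -0.40, -0.26 and -0.17 and Gstm4 had 0.42, -0.27, -0.14 and -0.04 at 1, 2, 4 and 6 h, both positive at 1 h alone. Gstm6 (-0.32 at 1 h, 0.20 at 6 h) and Gstz1, a maleylacetoacetate isomerase (-0.33 and 0.22), were negative at 1 h. Gsto1 stayed within 0.19 of 0. Mu-class genes thus lay on both sides of 0 on the 1 h array. A Gsta2 feature had 1.08 at 1 h, the highest member value there, and another Gsta2 feature had -0.15 at 2 h, with no array on which both had a value. Gsta1 had a value at 1 h alone (0.40), Gstm2 and Gstt2 at 2 h alone (0.27 and -0.42), and Gsta3 at 6 h alone (0.25). Gstm5, known from brain and testis, had 0.22, -0.02 and 0.15 at 2, 4 and 6 h, and Gstt3 had 0.08 at 1 h and 0.09 at 4 h.

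Haem oxygenases split haem into biliverdin, iron and carbon monoxide, and quinone reductases reduce quinones in a single step that avoids radicals. All 4 genes were negative at 1 h and positive at 2 and 6 h, with medians of -0.11, 0.27, 0.20 and 0.32 at 1, 2, 4 and 6 h. Hmox1, the inducible haem oxygenase, had -0.09, 0.21, 0.26 and 0.31, with a later mean of 0.26 ± 0.05 (adjusted p 0.0434, limma). Hmox2, the constitutive form of neurons, had -0.01, 0.57, 0.30 and 0.35, with a later mean of 0.41 ± 0.14 (adjusted p 0.0318). Nqo2 had -0.17, 0.34, 0.15 and 0.26, and Nqo1, a classical Nrf2 target, had -0.12, 0.11, -0.03 and 0.33. The later means of Nqo1 and Nqo2 did not pass, with adjusted p of 0.285 and 0.0569. With 1 h included, none of the 4 genes passed, at adjusted p from 0.285 for Hmox2 to 0.734 for Nqo1.

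Metallothioneins are small cysteine-rich proteins that bind zinc and copper, and Mt3 is the form enriched in brain. Mt2, whose RefSeq promoter held 2 matches of each metal response core beside the antioxidant core shown above, had 0.02, 0.19, 0.09 and 0.22 at 1, 2, 4 and 6 h (mean 0.13 ± 0.09, adjusted p 0.399, limma). Mt3 had -0.13, 0.26, -0.10 and 0.16. Both had higher values at 2 and 6 h than at 1 and 4 h. Mt4, known from stratified epithelium, had -0.10 at 1 h and 0.31 at 2 h and no later value.

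**Figure D4:**
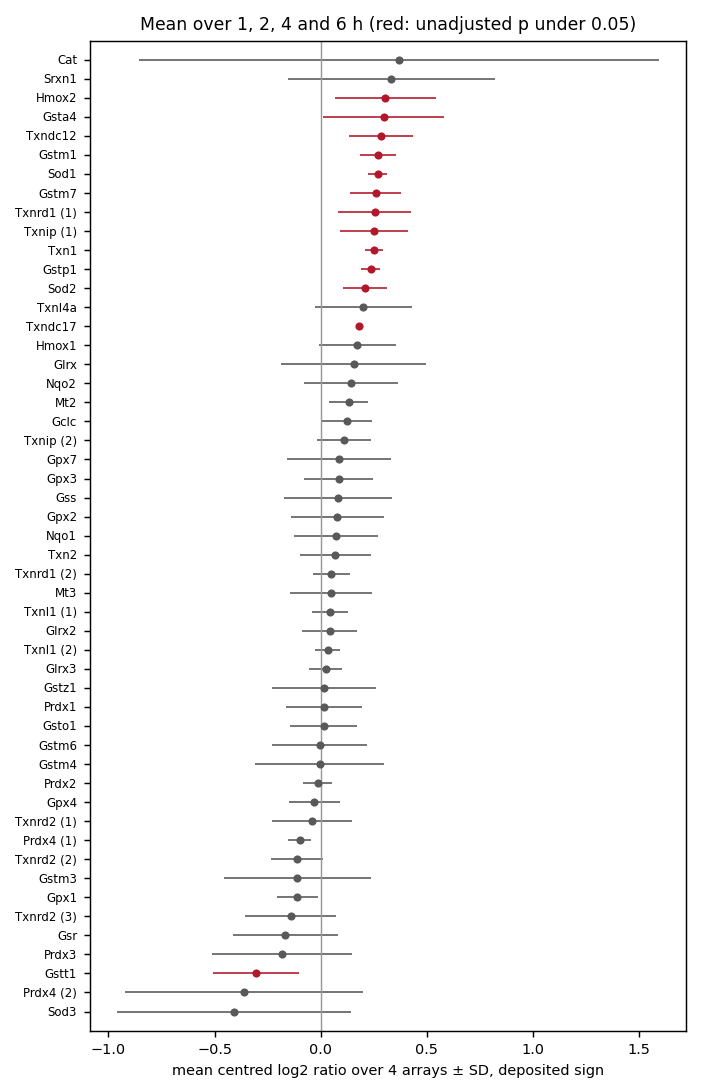
Mean centred log2 ratio (deposited sign, x axis) of each of the 51 member features over the arrays at 1, 2, 4 and 6 h, with bars of 1 SD over the 4 arrays; red marks an unadjusted p under 0.05 in limma, and no feature passed after adjustment. Sod1, Txn1, Gstp1 and Txndc17 combine small positive means with short bars, while Cat and Srxn1 have higher means with bars that cross 0.

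The courses over time sorted the members much as they sorted all features. Ratios that were negative at 1 h and positive at 2, 4 and 6 h occurred in 9 of 51 members (17.6%, beside 17.2% of all features), and the reverse in 7 (13.7%, beside 14.7%). One sign at 2, 4 and 6 h was kept by 31 members (60.8%, beside 57.3%), and 4 had opposite signs early and late (7.84%, beside 9.57%). In the slope fit 0 members passed (0% of all features) and 4 had an unadjusted p under 0.05 (7.84%, beside 15.4%). Cat and Glrx had positive slopes (3.92%, beside 8.81% of all features) and Prdx4 and Sod3 negative ones (3.92%, beside 6.64%). For 4 and 6 h against 1 and 2 h, 0 passed (0% of all features) and 3 had an unadjusted p under 0.05 (5.88%, beside 5.69%). Cat was higher late (1.96%, beside 3.4%), and Gpx2 and Prdx4 were lower late (3.92%, beside 2.29%). With the 2 h array left out, so that 1 h alone stood for early times, 4 members passed as higher late (7.84%, beside 9.72% of all features) and 5 as lower late (9.8%, beside 7.61%). In the fit of all 4 arrays Sod3 had a late minus early difference of -0.75 ± 0.29 (SE). Its unadjusted p there was just above 0.05, and its adjusted p was 0.768 (limma). Without 2 h the Sod3 difference was -1.14. Members past 0.5 in size were few at every time. At or above 0.5 there were 3, 3, 1 and 1 members at 1, 2, 4 and 6 h (4.84%, 5.00%, 1.89% and 1.85%, beside 8.90%, 2.45%, 3.82% and 2.74% of all features). At or below -0.5 there were 2, 4, 2 and 2 (3.23%, 6.67%, 3.77% and 3.70%, beside 6.30%, 3.83%, 5.29% and 4.08%). Each of these shares rests on 1 to 4 members, too few to set the members apart from all features.

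Genes that regulate or feed the system were followed with lists of genes outside the name rule. Of 14 Keap1-Nrf2 pathway genes, 10 had values on all 4 arrays (11 features), and none passed for the mean. Nfe2l2, which encodes Nrf2, had 0.14, -0.04, -0.02 and -0.16 at 1, 2, 4 and 6 h, and Keap1 had -0.08, -0.04, -0.20 and -0.32. The related factor Nfe2l1 had a mean of -0.21 ± 0.09 (adjusted p 0.284, limma), and Sqstm1, the p62 autophagy receptor that binds Keap1, had 0.31, 0.41, 0.20 and 0.22 (mean 0.28 ± 0.10, adjusted p 0.241). Keap1 and Nfe2l1 were negative and Sqstm1 positive on every array. Park7, the DJ-1 protein gene, had a mean of 0.08 ± 0.07.

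The 11 measured genes of NADPH supply had list medians of -0.19, -0.02, 0.02 and 0.01 at 1, 2, 4 and 6 h, and none passed. Taldo1, transaldolase of the pentose phosphate pathway, had the largest mean of the list, 0.28 ± 0.08 (adjusted p 0.233, limma), and it was called without 1 h (mean 0.27, adjusted p 0.0491). Idh1, the cytosolic isocitrate dehydrogenase, had -0.22 ± 0.26. Among 14 genes of glutathione transport and turnover (16 features) medians were 0.01, 0.05, -0.04 and 0.10. Slc7a11, the cystine importer, had 0.42, -0.22, -0.62 and -0.43, positive at 1 h alone, with a later mean of -0.42 (adjusted p 0.0409, limma). Abcc5, an exporter of conjugates, had a mean of 0.26 ± 0.42. Without 1 h this list had 1 feature called in each direction.

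Other lists gave few calls. Selenoprotein and methionine sulfoxide repair genes (9 features) had medians of -0.06, 0.04, 0.01 and 0.09, phase I and II enzymes outside the name rule (22 features) -0.08, 0.04, 0.01 and 0.17, and superoxide and peroxide producing enzymes (9 features) 0.01, 0.07, 0.09 and 0.04. Selenom, a selenoprotein, had a mean of -0.11 ± 0.26, and Eefsec, the selenocysteine elongation factor, 0.17 ± 0.33. Mpst, a sulfurtransferase, had -0.30 ± 0.18, and Sult4a1, a brain sulfotransferase, -0.28 ± 0.61, with -1.18 at 1 h. Rac1, a subunit of NADPH oxidases, had -0.10 ± 0.20, and Nos2, the inducible nitric oxide synthase, 0.09 ± 0.21. None of these lists had a gene past the threshold for the mean over the 4 times. Without 1 h they had 1, 3 and 0 positive calls and no negative one, beside 6.61% of all features called positive and 5.4% called negative.

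Markers of the cell types in the tissue are given beside the members. Astrocyte markers (14 features of 11 genes) had medians of -0.03, 0.05, -0.00 and 0.09 at 1, 2, 4 and 6 h, with 7, 11, 7 and 11 features positive. Aldoc, Gfap and Slc1a3 were called positive without 1 h (later means 0.38, 0.38 and 0.36, adjusted p 0.0296, 0.0258 and 0.0292, limma), whereas the water channel gene Aqp4 was negative on every array; Slc1a3 and Aqp4 were chosen after their values were seen. Microglia markers (13 features) had medians of 0.06, -0.00, 0.03 and 0.15 and 3 positive calls without 1 h. One Ctss feature had a mean of 0.40 ± 0.15 and the other 0.13 ± 0.19, and the Tyrobp features had 0.38 ± 0.18 and 0.36 ± 0.20. Other microglia markers had negative means, among them C1qa (-0.21 ± 0.18) and Csf1r (-0.17 ± 0.05). Csf1r was negative on every array, and the median of the means over the list was 0.00. C1qa and Csf1r were chosen after their values were seen. The part of astrocytes or microglia in the member ratios was not tested. Medians of the neuron, oligodendrocyte and granule cell lists stayed between -0.14 and 0.10 on every array. The features with the largest means in them were, for neurons, Camk2a (-0.21 ± 0.42) and Map2 (0.19 ± 0.28). For oligodendrocytes they were Mog (0.22 ± 0.08) and Cnp (0.19 ± 0.32), and for granule cells Ntng1 (-0.33 ± 0.06) and Calb1 (-0.19 ± 0.04). The second features of Camk2a (0.07 ± 0.25) and Ntng1 (0.08 ± 0.09) had means of the other sign. Those of Mog (0.01 ± 0.06) and Calb1 (-0.07 ± 0.09) had smaller means of the same sign. List medians of vessel markers ran from -0.22 at 2 h to 0.17 at 6 h. Those of blood markers ran from 0.31 at 2 h to -0.09 at 4 h, and those of choroid plexus markers from -0.46 at 4 h to -0.14 at 6 h. Single features lay far outside these medians, among them Car1 and the first Kl feature given with Sod3. Among vessel markers Flt1 had a mean of -0.22 ± 0.25 and Cldn5 one of -0.16 ± 0.62, and the blood marker Hba-a1 had 0.26 ± 0.17.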

How the data were processed

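The deposited values were log ratios of the Cy5 and Cy3 channels of 4 arrays in 1 table, read as log2 although the base is not stated. The scanning, background correction and normalisation by the authors are not given in the sources used here, and no intensities were used, so signal over background and dye effects could not be examined. The authors' values were already centred near 0 (medians 0.0074, 0.0093, 0.017 and 0.0052 at 1, 2, 4 and 6 h). An exact 0, found in 24.9% to 37.4% of the 16281 features, was treated as no value. Features were named through the platform annotation: 13738 had 1 symbol, 52 several and 2491 none, and 13694 matched RefSeq genes (GRCm38.p6) by Entrez identifier, with 0 symbols changed.

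Each array was centred on its median. Features with 1 symbol and values on all 4 arrays were fitted singly, since features of 1 gene differed, in limma 3.58.1 (R 4.3.3, lmFit and eBayes, two-sided, Benjamini-Hochberg over all 7684). The mean was tested against 0, then the slope on log2 hours, then 4 and 6 h against 1 and 2 h with neighbouring times as stand-ins for replicates. A constant dye bias cancels in the last 2 and not in the first. The number of arrays limits the precision. The fits were run on simulated ratios with independent noise of the same SD for every feature. Non-zero shifts as small as the member means, and arrays correlated as these were, were not simulated, so the simulation does not cover them. Alternatives were centring, scaling, quantile normalisation, exact 0 as a value, values on 3 arrays, averaged features, array weights and each array left out. Genes were named by a rule that took the main member of each class, each member past 0.5 in size on any array, and of each outside list the features with the largest means and a few set regulators. The members, lists, tests and rule were chosen with earlier results of these data known. Promoters were searched with Python 3.11.15.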

Additional observations from a re-analysis of the deposited data

Results flagged for a closer look

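Member features whose ratios had 1 sign at both 1 and 2 h and the opposite sign at both 4 and 6 h were singled out. There were 4 such features (7.84% of the members, beside 9.57% of all features), and for none did the difference pass in limma. Cat had a difference of 4 and 6 h minus 1 and 2 h of 2.11 (adjusted p 0.205), and with each array left out in turn the difference ran from 1.94 to 2.28 (adjusted p 0.0233 without 2 h, not passed otherwise). Gpx2 had a difference of -0.38 (adjusted p 0.768). Glrx2 had -0.21 (adjusted p 0.768) and Glrx3 had 0.12 (adjusted p 0.821), both with every single value within 0.19 of 0.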

How the results depend on the processing

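No paired analysis was possible because each time has 1 array. For the mean over the 4 times, where 0 members and 0 of all features passed, array weights called 20 members and 2088 of all features, quantile normalisation called 9 of all features and values on at least 3 arrays 15, with 0 members in both. Leaving out 1 array in turn gave 0 to 13 members and 0 to 923 of all features, and the 1 h array alone made the difference. For the slope, leaving out 1 array gave 0 members and 0 to 1 of all features (1 without 4 h). For late against early times, leaving out 1 array gave 0 to 9 members and 0 to 1332 of all features, with the highest counts without 2 h, when 1 h alone stood for early times and its spread was taken from the late arrays. Exact 0 read as a value called 5 of all features there. Members past 0.5 numbered 5, 7, 3 and 3 at 1, 2, 4 and 6 h, and past 1 they numbered 2, 0, 1 and 1. With values on all 4 arrays required, 2 were past 0.5 at 1 h. The member median at 6 h became 0.0675 (0.13 otherwise) with exact 0 read as a value, when absent values pull it to 0. Of 224 repeats of 20 named results, 202 kept direction and call, 22 gained a call and 0 reversed. Each of the 20 named results had an unadjusted p under 0.05 in limma and none was called in the main fit, so no repeat could lose a call. Repeats that kept direction and call include smaller estimates: the Prdx4 slope of -0.48 became -0.23 with averaged features. The cause of these differences between settings was not tested beyond their construction.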

Other observations

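Genes of haem, iron, copper and zinc handling border on the haem oxygenases and metallothioneins. In their list 15 genes (22 features) had values on all 4 arrays, with medians of 0.09, -0.08, -0.01 and 0.01 at 1, 2, 4 and 6 h. None passed for the mean over the 4 times, and without 1 h 1 was called positive and 2 negative. Fth1, the ferritin heavy chain that stores iron, had 0.18, 0.11, 0.22 and 0.43 (mean 0.24 ± 0.14, adjusted p 0.284, limma), positive on every array. Slc30a1, a zinc exporter, had -0.70, -1.33, -1.95 and -1.96 on one feature and -0.24, -0.16, 0.03 and -0.00 on another. The features of Hpx, the haem carrier hemopexin, were both positive at 1 h and opposed later: one had 0.36, -0.40, -1.10 and -0.72 and the other 0.17, 0.32, 0.67 and 0.55.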
